A study of Danio rerio with 7 samples.

Results

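The Meis, Pbx and Pknox genes encode the cofactors of Hox proteins and were examined in dissected zebrafish hindbrain with and without functional fgf20a. The list held 10 genes, taken by name from 32189 gene IDs in the count table. A single ID was found for 9 of them, 6 under their own name (meis1a, meis2b, meis3, pbx1a, pbx2 and pbx4) and 3 by elimination (meis1b, meis2a and pbx3b). In these 3 cases the names table gives 1 ID the symbol without its final letter, while the only other copy known to RefSeq has an ID of its own. The remaining gene, pknox1.1, was dropped because 2 IDs carry the symbol PKNOX1 and cannot be assigned to pknox1.1 and pknox1.2. Values of both IDs are given separately.

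RNA of 7 libraries was sequenced, each from the hindbrain of a single embryo raised at 28.5°C to 24 hpf (hours post fertilisation), with surrounding tissue named in the sample labels. Wild-type LondonAB embryos gave the 4 libraries named Cnt, and embryos homozygous for the fgf20a (dob) mutation the 3 named Fgf20aHOM. Mutants came from crosses between homozygous parents, so line and genotype cannot be told apart. Fgf20a is a fibroblast growth factor secreted by neurons at segment centres, and the comparison asks which transcripts depend on it.

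Meis, Pbx and Pknox proteins belong to the TALE class of homeodomain proteins, named after a loop of extra amino acids between the first helices of the DNA-binding domain. Pbx proteins bind DNA together with Hox proteins and sharpen their choice of sites. Meis and Pknox proteins bind Pbx, retain it in the nucleus and join the complex with Hox proteins on DNA. In the zebrafish hindbrain this machinery sets segment identity: embryos that lack both Pbx4 and Pbx2 lose the differences between segments. No transcript lengths were used here, so levels were not compared between genes.

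Total counts ranged from 59800936 to 69801072 in Cnt and from 52900433 to 55915518 in Fgf20aHOM. These ranges did not overlap (exact two-sided permutation p = 0.0571, the smallest that 35 splits of libraries can give). Normalised counts, that is counts divided by the library size as scaled with TMM (trimmed mean of M values) and multiplied by the mean of those sizes, are used below. No 2 libraries agreed within sampling noise, with a chi-square per gene of at least 76.6. The mutated gene could not be told from its copy, because 2 IDs carry the symbol FGF20, and a mutant transcript can still be counted. These had 138.8, 390.2, 136.4 and 131.3 (ENSDARG00000007356) and 207.2, 909.4, 331.3 and 404.6 (ENSDARG00000086070) in Cnt 1 to 4, and 270.1, 181.5 and 230.7 and 269.1, 291.5 and 545.8 in the mutants, all within the wild-type range. All 5 matched hindbrain markers were present in every library, with at least 1081 normalised counts for hoxb2a, 2639 for egr2b, 2931 for hoxa2b, 5161 for hoxb1a and 7086 for hoxb3a. Epidermal keratins differed widely within Cnt, and the summed count of 6 epidermal markers ran from 63275 in Cnt 2 to 1183180 in Cnt 1.

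meis3 showed the largest difference of the 9 genes. Meis3 is a Meis protein that promotes posterior hindbrain fates in frog and zebrafish embryos. Its normalised counts were 3437, 4868, 5441 and 6461 in Cnt 1 to 4, and 13964, 11838 and 10633 in Fgf20aHOM F2, F3 and F4. Every mutant library lay above every wild-type library. The Cnt mean was 5052 ± 1262 (SD, n = 4) and the Fgf20aHOM mean 12145 ± 1686 (SD, n = 3). This is a 2.40-fold difference with a 95% interval of 1.65 to 3.50, or 1.27 ± 0.24 (SE) on the log2 scale. The adjusted p was 0.0356 in the edgeR quasi-likelihood test. This passes 0.05 but not 0.01, the limit that the study set for its own DESeq2 results. In bulk tissue, more cells with meis3 and more meis3 RNA per cell cannot be told apart.

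With DESeq2, the tool that the study used, the meis3 difference was of the same size (2.39-fold) and passed all limits (adjusted p = 5.39e-04). Leaving out single libraries moved the log2 fold change between 1.12 (without Cnt 1) and 1.45 (without Cnt 4). The adjusted p by edgeR was 0.0276 without Cnt 4 and between 0.0754 and 0.131 without each of the other 6 libraries, so that the difference no longer passed 0.05 in those fits.

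meis2b was the other gene whose groups did not overlap. The normalised counts were 6337, 6724, 7194 and 6417 in Cnt 1 to 4 and 11933, 11087 and 9716 in Fgf20aHOM F2, F3 and F4. The wild-type libraries were close together, with a coefficient of variation of 5.82%, the smallest among the 9 genes, and the mutant libraries all lay above them. The difference was 1.64-fold (95% interval 1.24 to 2.17), or 0.71 ± 0.18 (SE) on the log2 scale. The adjusted p was 0.0996 by edgeR, which did not pass 0.05, and 0.00855 by DESeq2, where the fold change was below the limit of 2.

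**Figure D1:**
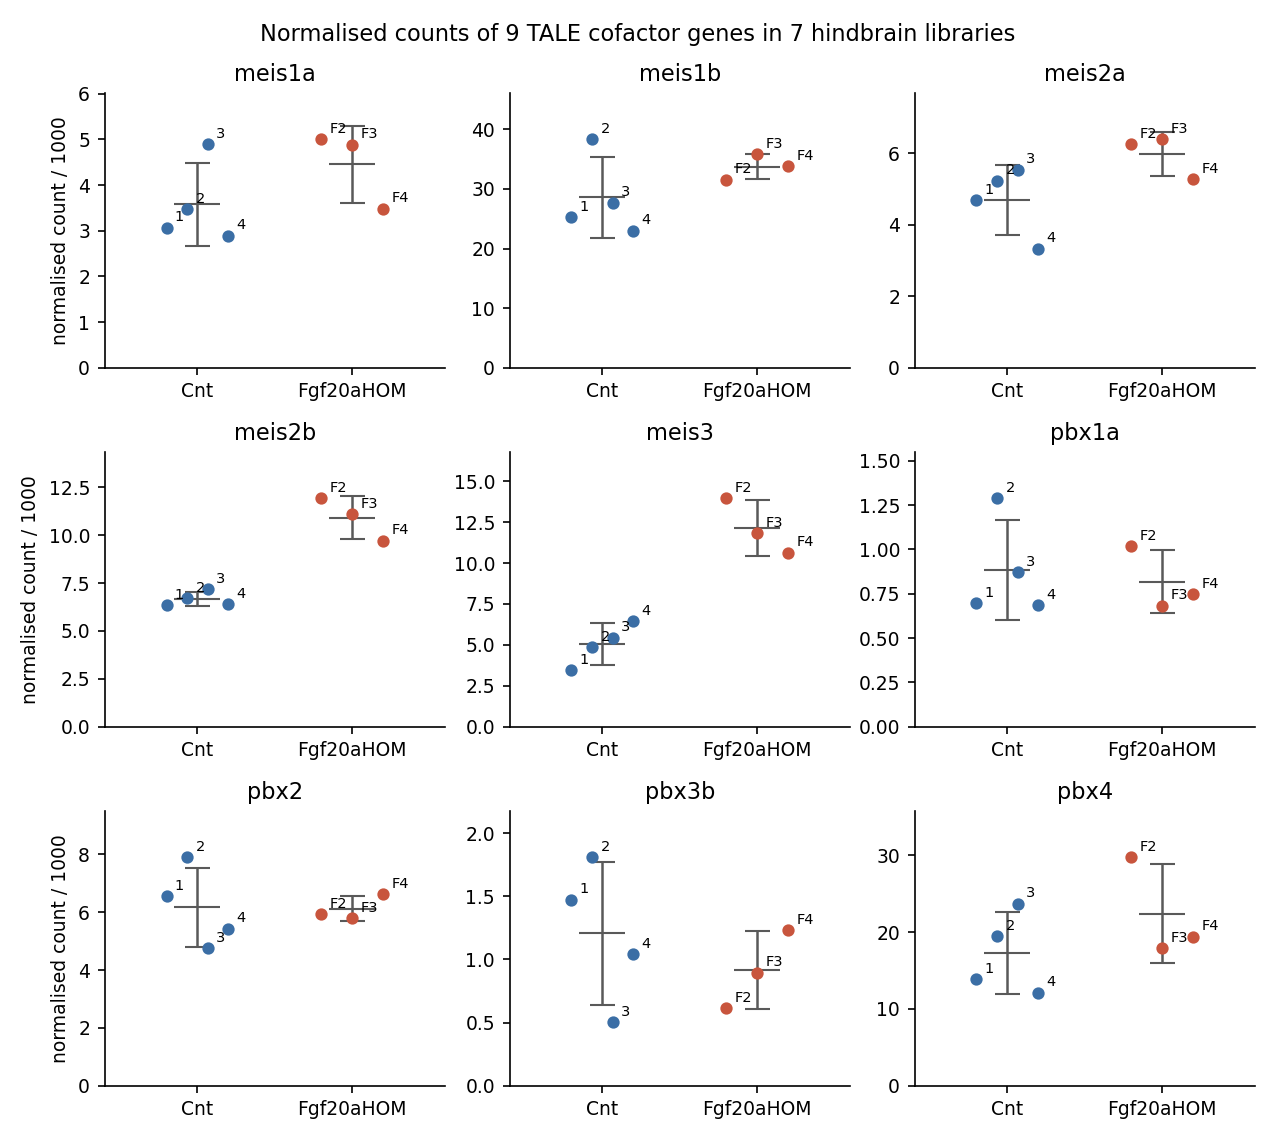
Normalised counts (divided by 1000, each panel from 0) of 9 Meis and Pbx genes in 4 Cnt (blue) and 3 Fgf20aHOM (red) libraries. Points are libraries, labelled by number, and bars are the mean and SD of each group. For meis3 and meis2b the mutant points lie above all wild-type points, whereas the groups overlap for the other 7 genes.

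By the limits of the study (adjusted p of at most 0.01, at least 2-fold change and more than 30 normalised counts in all libraries of 1 group), edgeR called 0 of the 9 genes, limma-voom 0 and DESeq2 1 (meis3). Of all tested genes edgeR called 0.439% (of 19589), limma-voom 0.505% and DESeq2 3.08% (of 20571). With an adjusted p of at most 0.05 and no other limit, edgeR and limma-voom each counted 1 of 9 (meis3) and DESeq2 2 of 9 (meis3 and meis2b), against 1.51%, 2.29% and 6.64% of all tested genes by edgeR, limma-voom and DESeq2. An unadjusted p under 0.05 was found by edgeR for 2 of 9 genes, both higher in mutants, against 15.6% of all in either direction and 8.44% of all in that direction. The mutant libraries lay entirely above the wild-type libraries for 2 of 9 genes, and for 9.46% of all. All 9 genes passed the filter on low counts. Their median log2 fold change was 0.32, and that of all tested genes was -0.048.

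meis2a, the other copy of the meis2 pair, had 4693, 5235, 5543 and 3329 normalised counts in Cnt 1 to 4 and 6263, 6396 and 5269 in Fgf20aHOM F2, F3 and F4. Only Fgf20aHOM F4 overlapped with wild type, where it lay between Cnt 2 and Cnt 3. The difference was 1.27-fold (95% interval 0.895 to 1.81, edgeR adjusted p = 0.501). meis2a made up 42.5%, 43.8% and 43.5% of the raw counts of the pair in Cnt 1 to 3, but 34.2% in Cnt 4 and 34.4%, 36.6% and 35.2% in Fgf20aHOM F2, F3 and F4. Cnt 4 thus resembled the mutants in this share, and the groups overlapped. Whether the copies differed from each other in their fold change was not tested.

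RSEM, the counting program, divides reads that match both copies, so the copies were also added before the fit. The meis2a and meis2b sum was 11029, 11959, 12736 and 9747 in Cnt 1 to 4 and 18198, 17484 and 14984 in Fgf20aHOM F2, F3 and F4. The groups did not overlap in this sum, which was 1.49-fold higher in mutants (95% interval 1.11 to 1.99, edgeR adjusted p = 0.187). It did not pass 0.05 in any of the 16 alternative fits, DESeq2 included (adjusted p = 0.0753).

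The meis1 pair overlapped between genotypes. meis1b had 25249.7, 38351, 27700.2 and 23014 normalised counts in Cnt 1 to 4 and 31544, 35842 and 33873 in Fgf20aHOM F2, F3 and F4. Cnt 2 was above all mutant libraries and the other Cnt libraries were below them. The fold difference was 1.18 (95% interval 0.842 to 1.66, edgeR adjusted p = 0.639).

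meis1a had 3067, 3475, 4890.2 and 2894 normalised counts in Cnt 1 to 4, and 5004, 4887 and 3484 in Fgf20aHOM F2, F3 and F4. Cnt 3 reached the level of the upper mutant libraries, and Fgf20aHOM F4 that of Cnt 2. The fold difference was 1.24 (95% interval 0.845 to 1.83, edgeR adjusted p = 0.584). The sum of meis1a and meis1b differed by 1.19-fold (95% interval 0.855 to 1.65, edgeR adjusted p = 0.614), and meis1a held between 8.31% and 15.0% of the raw counts of the pair in all 7 libraries.

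**Figure D2:**
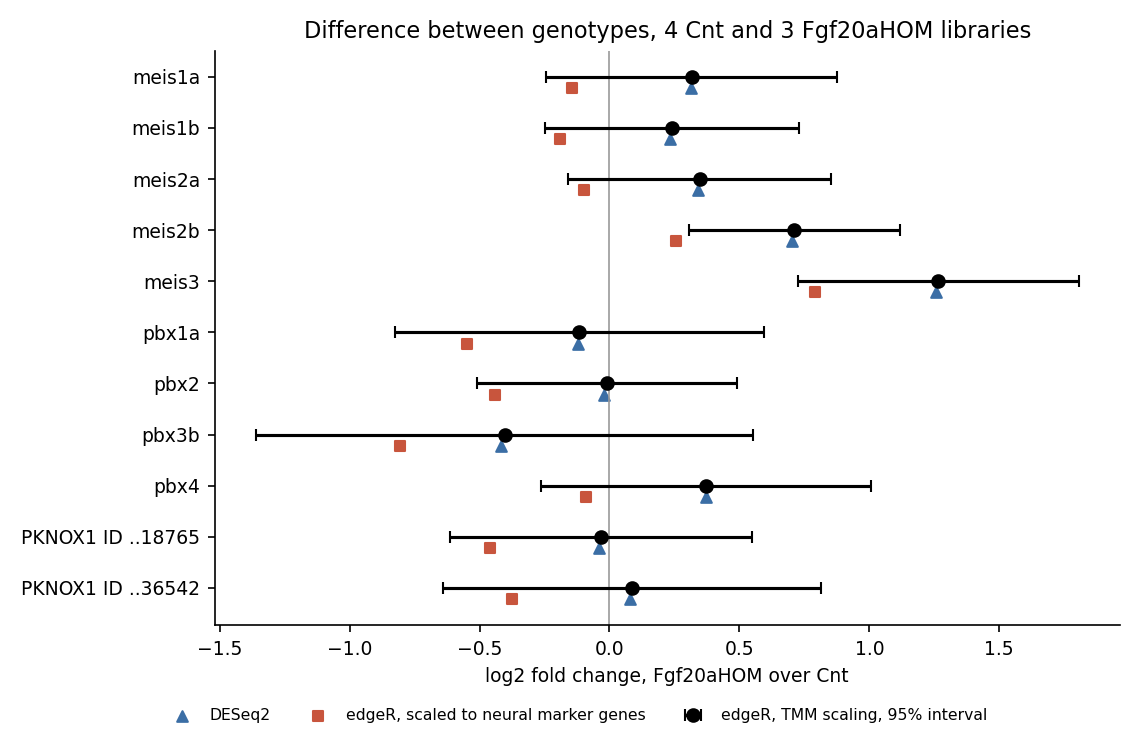
Log2 fold change (Fgf20aHOM over Cnt) of the 9 Meis and Pbx genes and both PKNOX1 IDs. Black points and bars are edgeR estimates with 95% intervals, triangles are DESeq2 estimates, and squares are edgeR estimates after scaling to 10 neural marker genes. The interval excludes 0 for meis3 (1.27) and meis2b (0.71), and the squares lie to the left of the black points throughout.

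None of the 4 Pbx genes differed beyond the spread between libraries by edgeR, with 0 of 4 at an unadjusted p under 0.05 and 0 of 4 at an adjusted p of 0.05 by DESeq2 or limma-voom. pbx4, known as lazarus, is the main Pbx gene of early zebrafish embryos and is required for hindbrain segmentation. Its normalised counts were 13876, 19488, 23717 and 12103 in Cnt 1 to 4 and 29757, 17910 and 19423 in F2, F3 and F4. Fgf20aHOM F2 was the highest library, while F3 and F4 lay within the wild-type range. The difference was 1.29-fold (95% interval 0.833 to 2.01, edgeR adjusted p = 0.569), and without Fgf20aHOM F2 the log2 fold change was 0.11.

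pbx2 acts together with pbx4 in the hindbrain. It had 6557, 7903, 4770 and 5429 normalised counts in Cnt 1 to 4, and 5946, 5794 and 6627 in Fgf20aHOM F2, F3 and F4. All mutant libraries lay within the wild-type range, and the means of 6165 ± 1374 and 6122 ± 443 (SD, n = 4 and 3) were nearly equal. The 95% interval of the fold difference, 0.703 to 1.40, still allows a moderate change in either direction (edgeR adjusted p = 0.990).

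pbx1a and pbx3b also overlapped between genotypes. pbx1a had 696, 1289, 871 and 685 normalised counts in Cnt 1 to 4 and 1019.6, 683 and 748 in Fgf20aHOM F2, F3 and F4. Cnt 2 was highest, and the fold difference was 0.923 (95% interval 0.564 to 1.51, edgeR adjusted p = 0.895).

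pbx3b varied most among wild-type libraries, with 1474, 1809.7, 502 and 1044 normalised counts in Cnt 1 to 4. The highest of these was 3.60 times the lowest, and the mutant libraries with 613, 895 and 1231 lay within that range. The fold difference was 0.756, and its 95% interval from 0.389 to 1.47 was the widest of the 9 genes on the log2 scale (edgeR adjusted p = 0.694).

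Pknox1, also called Prep1, is the other type of Pbx partner, and zebrafish pknox1.1 is required for hindbrain and pharyngeal patterning. The PKNOX1 ID ENSDARG00000018765 had 1855, 2257, 1355 and 1359 normalised counts in Cnt 1 to 4 and 1833, 1479 and 1694 in Fgf20aHOM F2, F3 and F4. The PKNOX1 ID ENSDARG00000036542 had 422, 733, 594 and 581 in Cnt 1 to 4 and 718, 433 and 704 in Fgf20aHOM F2, F3 and F4. For both IDs the mutant values lay within the wild-type range. The fold differences were 0.978 (95% interval 0.654 to 1.46) and 1.06 (95% interval 0.641 to 1.76), with edgeR adjusted p of 0.969 and 0.929. The sum of both IDs, which does not depend on which of them is pknox1.1, had a fold difference of 0.999 (95% interval 0.688 to 1.45, edgeR adjusted p = 0.998).

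Within wild type the genes did not share a single pattern across embryos. Cnt 4 was the lowest Cnt library for 5 of the 9 genes and the highest for 1 (meis3), Cnt 2 and Cnt 3 were each the highest for 4, and Cnt 1 was the lowest for 2 and the highest for none. Cnt 3 was the lowest for pbx2 and pbx3b, although it was the highest for meis1a, meis2a, meis2b and pbx4. Together the 9 genes took between 0.0904% (Cnt 4) and 0.153% (Cnt 2) of all counts in Cnt and between 0.158% and 0.190% in Fgf20aHOM.

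**Figure D3:**
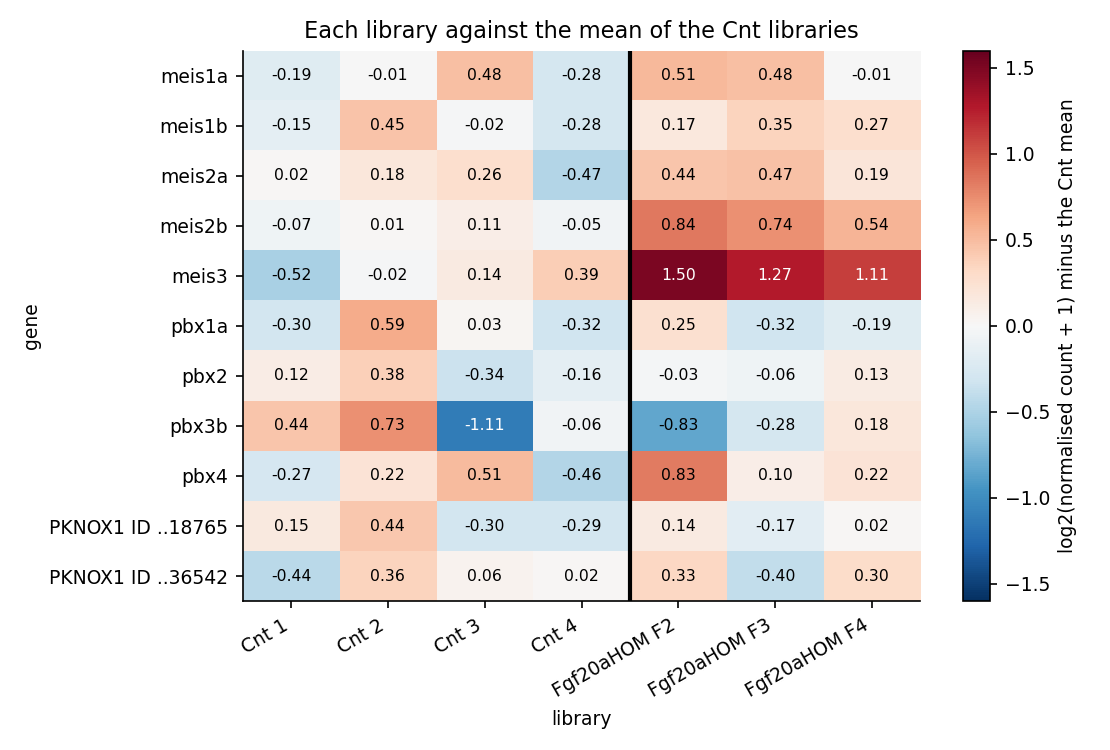
Difference between each library and the mean of the 4 Cnt libraries, as log2(normalised count + 1), for the 9 Meis and Pbx genes and both PKNOX1 IDs. Columns are libraries, with the Fgf20aHOM libraries to the right of the black line. The meis3 values are 1.50, 1.27 and 1.11 in the mutant libraries and between -0.52 and 0.39 in wild type, and pbx3b ranges from -1.11 to 0.73 in wild type alone.

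Neural marker genes were also compared, because the scale of the counts touches every value above. The geometric mean of 10 marker genes of neurons and neural progenitors was between 8351 and 10887 normalised counts in Cnt and between 11979 and 13380 in Fgf20aHOM, with no overlap. By edgeR 4 of these 10 genes had an unadjusted p under 0.05, all of them higher in mutants, against 8.44% of all genes in that direction, and 0 reached an adjusted p of 0.05. The lowest p were those of elavl4 of neurons (2.03-fold, edgeR adjusted p = 0.163, DESeq2 0.0586) and notch3 of progenitors (1.81-fold, edgeR adjusted p = 0.0936, DESeq2 0.0131), while isl1, sox3 and her4.1, chosen after their values were seen, had fold changes of 0.937, 1.02 and 1.09. When the libraries were scaled to these genes, a choice made after the data were seen, the median of all tested genes shifted from -0.048 to -0.50. meis3 then had 3771, 4805, 7003 and 8151 scaled counts in Cnt 1 to 4 and 11641.5, 10621 and 8540 in mutants F2, F3 and F4. The groups still did not overlap, but Fgf20aHOM F4 and Cnt 4 were close, and the log2 fold change was 0.79 (edgeR adjusted p = 0.141).

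On the same scale meis2b overlapped between groups, with a log2 fold change of 0.26 (edgeR adjusted p = 0.530), and meis1a, meis1b, meis2a and pbx4 had values below 0. pbx2 and PKNOX1 ENSDARG00000018765 did not overlap on this scale and lay lower in mutants. Their log2 fold changes were -0.44 and -0.46, with edgeR adjusted p of 0.221 and 0.255. The median of all tested genes was -0.50 on this scale, where the share of all genes without overlap was not counted. For pbx2 the scaled counts were 4957 to 5323, against 6138 to 7802 in Cnt.

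Hox genes of paralogue group 4, which mark the posterior hindbrain and spinal cord, differed between wild-type libraries. hoxd4a, chosen after its values were seen, had 1090.2 and 900.3 normalised counts in Cnt 1 and Cnt 2, against 5296 and 7444 in Cnt 3 and Cnt 4, and 4832, 8552 and 5635 in Fgf20aHOM F2, F3 and F4. meis3 was lowest in Cnt 1 and next lowest in Cnt 2. With both libraries left out, the meis3 log2 fold change was 1.03 and the adjusted p by edgeR was 0.171, in a fit with 2 Cnt libraries. The part of this difference between wild-type libraries in the meis3 values was not tested.

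The partners of these cofactors were examined as lists. Of 14 Hox genes of paralogue groups 1 to 4, the groups active in the hindbrain, 13 had a single ID and were tested. By the limits of the study edgeR and limma-voom called 0 of 13, against 0.439% and 0.505% of all tested genes. DESeq2 called 1, hoxd3a, against 3.08% of all. By edgeR 0 reached an adjusted p of 0.05 and 4 had an unadjusted p under 0.05, all higher in mutants, against 8.44% of all genes in that direction. These were hoxd3a, hoxb2a, hoxb3a and hoxb4a, of which hoxb4a is named after its values were seen. The median log2 fold change of the list was 0.57, and 11 of 13 values were positive, against 9275 of 19589 tested genes. Some positive values came with a wide spread in wild type. hoxc1a, hoxc3a and hoxc4a, named after their values were seen, had at most 533, 206 and 43.0 normalised counts in Cnt 1 and Cnt 2. In Cnt 3 and Cnt 4 they had at least 1239, 1239 and 697, whereas hoxa2b was higher in Cnt 1 and Cnt 2.

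hoxd3a, matched by elimination like hoxb2a, hoxb3a, hoxb4a, hoxc4a and hoxd4a, had the lowest p of the Hox genes. Its normalised counts were 489, 433, 567 and 491 in Cnt 1 to 4 and, without overlap, 1355.5, 799.7 and 1444 in F2, F3 and F4. The difference was 2.42-fold (95% interval 1.54 to 3.81, edgeR adjusted p = 0.0726, DESeq2 0.00174). hoxb1a, with which Meis and Pbx proteins cooperate in the fourth segment, had 6927, 6719.6, 5392 and 8157 in Cnt 1 to 4 and 5161, 6457 and 5928 in Fgf20aHOM F2, F3 and F4. These ranges overlapped, with an edgeR adjusted p of 0.663 and a log2 value of -0.22 ± 0.21 (SE).

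Hox genes of groups 5 to 9 mark tissue behind the hindbrain. Of 13 with an ID, only 6 passed the filter on low counts. Of these, 0 had an unadjusted p under 0.05 by edgeR, against 15.6% of all tested genes. Their median log2 fold change was 1.30, and 5 of 6 values were positive, against 9275 of 19589 tested genes. DESeq2 and limma-voom called 0, against 3.08% and 0.505% of all. 2 of the 13 had 0 counts in all 7 libraries. Normalised counts summed over the 13 varied widely, from 17.4 to 742 in Cnt and from 93.1 to 997 in Fgf20aHOM.

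Among genes that act downstream of Hox and TALE factors in segments, 6 of 13 had a single ID. Of these edgeR, DESeq2 and limma-voom each called 0, against 0.439%, 3.08% and 0.505% of all genes. With edgeR 2 had an unadjusted p under 0.05, both higher in mutants, against 8.44% of all genes. The lowest p was that of ephb4a, a receptor that helps to keep neighbouring segments apart, with 1709, 1181, 3101 and 1979 normalised counts in Cnt 1 to 4 and 5055, 3447 and 4427 in mutants F2, F3 and F4. Its groups did not overlap (2.16-fold, 95% interval 1.32 to 3.53, edgeR adjusted p = 0.136, DESeq2 0.0327). egr2b, matched by elimination, marks 2 of the odd-numbered segments and helps to control Hox genes there. It overlapped between groups (1.74-fold, 95% interval 0.995 to 3.04, edgeR adjusted p = 0.325).

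Retinoic acid induces Hox and meis genes in the posterior hindbrain. Of 15 genes of its synthesis, breakdown and reception, 7 had a single ID. By the limits of the study 0 of 7 were called by edgeR, DESeq2 or limma-voom, against 0.439%, 3.08% and 0.505% of all genes. In the edgeR test 5 of 7 had an unadjusted p under 0.05, all higher in mutants, against 8.44% of all genes in that direction, and 0 reached an adjusted p of 0.05. The receptor gene rarab had the lowest p, with 1698, 2117, 1969 and 1622 normalised counts in Cnt 1 to 4 and 3935, 3163 and 2622 in Fgf20aHOM F2, F3 and F4 (1.75-fold, 95% interval 1.23 to 2.48, edgeR adjusted p = 0.130, DESeq2 0.0282). The degrading enzyme gene cyp26b1, chosen after its values were seen, overlapped between groups at 0.704-fold (95% interval 0.398 to 1.25, edgeR adjusted p = 0.550). The other degrading enzyme genes tested, cyp26a1 and cyp26c1, are also named after their values were seen, and both overlapped between groups. Mean counts of cyp26a1 were lower in mutants (edgeR adjusted p = 0.655). cyp26c1 went the other way and was among the 5 genes counted as higher (edgeR adjusted p = 0.303).

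**Figure D4:**
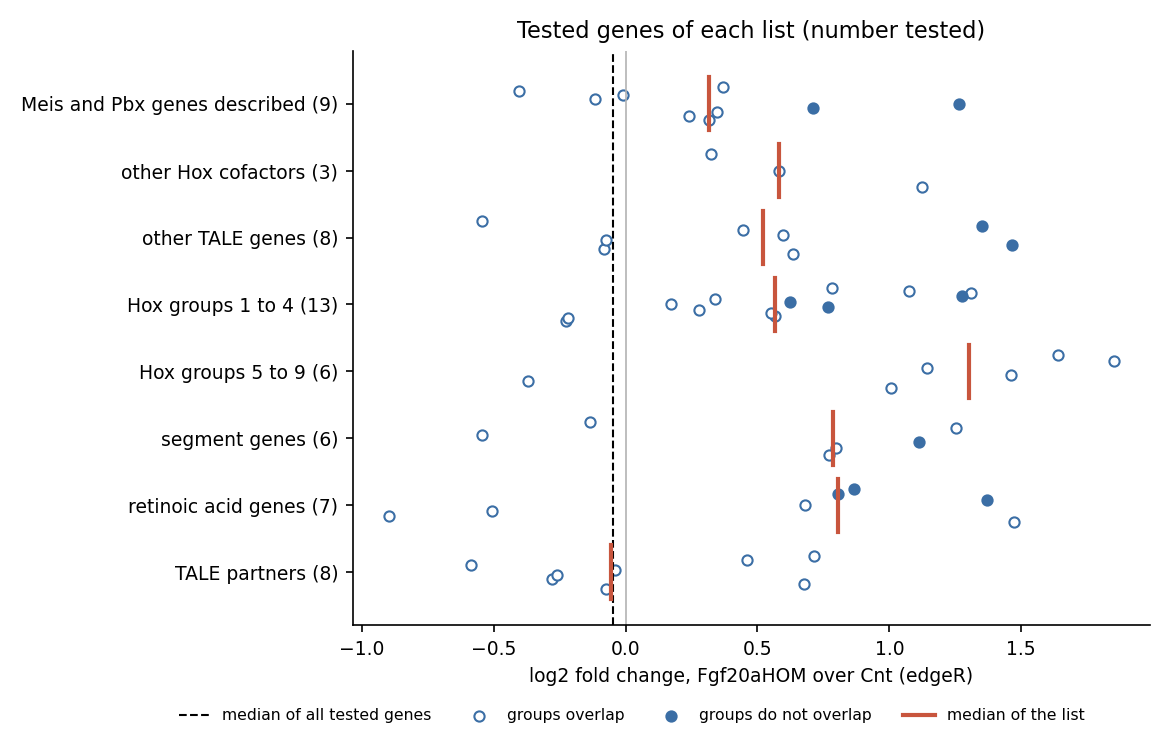
Log2 fold change (Fgf20aHOM over Cnt, edgeR) of each tested gene in 8 lists, with the number tested in brackets. Filled points are genes whose groups do not overlap, red bars are list medians, and the dashed line is the median of all 19589 tested genes (-0.048). The Meis and Pbx median is 0.32 and that of Hox groups 1 to 4 is 0.57.

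Tissue outside the hindbrain was followed with marker lists. With edgeR or limma-voom no gene of these lists reached an adjusted p of 0.05. DESeq2 called 1 of 6 tested genes of neural crest and pharyngeal mesenchyme (foxd3, higher in mutants). It also called 1 of 5 of the otic vesicle (stm) and 1 of 4 of notochord (tbxta), both lower. In each of the other tissue lists it called 0, against 3.08% of all genes. foxd3, stm and tbxta also had the lowest p of their lists by edgeR. Genes of lowest p in further lists were otx2b of midbrain, actc1b of muscle, gata1a of blood, egfl7 of vessels and cyt1 of epidermis, with edgeR adjusted p between 0.478 and 0.613. Meis genes are also expressed in neural crest, eye and mesenchyme. The 6 matched markers of neural crest and pharyngeal mesenchyme summed to 4603 to 12310.0 normalised counts in Cnt and 10665 to 13255 in Fgf20aHOM. All 6 had a positive log2 fold change, against 9275 of 19589 tested genes. By edgeR 2 of these markers had an unadjusted p under 0.05, both higher in mutants, against 8.44% of all genes in that direction. Those of the otic vesicle summed to between 8612 and 35675 in Cnt and to between 4801 and 6422 in Fgf20aHOM, and those of notochord to between 3301 and 6412 and between 2153 and 4389. For these lists 3 of 5 and 1 of 4 tested genes had an unadjusted p under 0.05 by edgeR, all lower in mutants. Of all tested genes 15.6% passed in either direction, and 1412 of 19589 were lower in mutants. Of 5 forebrain and eye markers, rx1 and crygm2d2 had 0 counts throughout. The 4 muscle markers summed to at most 1186 in Cnt and to between 606 and 1926 in Fgf20aHOM. Of these the regulators myod1 and myog had at most 18.4 normalised counts in any library, whereas the differentiation genes actc1b and ckma reached 719 and 1195 in Fgf20aHOM F2. The part of these tissues in the meis3 and meis2b values was not tested.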

How the data were processed

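cDNA of single hindbrains was amplified (NuGEN Ovation V2), made into libraries with Nextera XT and sequenced from paired ends. The authors aligned reads to GRCz10 with STAR 2.5.1b through RSEM 1.2.31, and the deposited table holds their gene-level estimated counts, rounded to whole numbers and not scaled for depth. Use of strand and of molecular identifiers is not given in the sources used here, so overlapping genes are less certain. Columns of Fgf20aHOM are numbered F2 to F4 and the titles 1 to 3, so only their group is known.

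Symbols came from a table of Ensembl IDs, with RefSeq (assembly GRCz12tu) used only to list gene copies. No coordinates or sequences are given. Differential expression was tested over all genes with the edgeR 4.0.16 quasi-likelihood F test (R 4.3.3, TMM, robust, filterByExpr), two-sided, with Benjamini-Hochberg adjustment over 19589 genes. DESeq2 1.42.0, of which the study used an earlier version, and limma 3.58.1 (voom) were alternatives. The limma-voom fit gave each library a quality weight. SEs and 95% intervals were derived from the F statistics. The test was checked on simulated data. At an adjusted p of 0.05 it found 7 of 100 genes with a true 2-fold change and 46 of 100 with a true 4-fold change. Beside these, 4 unchanged genes passed. Most simulated 2-fold changes were thus missed, so not passing does not by itself show that a gene is unchanged. Among members that did not pass, the 95% intervals of meis2b, pbx3b and pbx4 still held a 2-fold change. Those of meis1a, meis1b, meis2a, pbx1a and pbx2 allowed smaller changes only. Genes named are all members, the gene of lowest p in each list, except 1 that is not reported here, and all hindbrain markers. Others are stated as chosen after their values were seen, as were rx1, crygm2d2, myod1, myog and ckma among the tissue markers. The members and lists were chosen with earlier results of these data known. The labels say nothing of shared clutches or days, so p-values measure the spread between these embryos.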

Additional observations from a re-analysis of the deposited data

How the results depend on the processing

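Of 16 alternatives, scaling to neural marker genes and leaving out both Cnt 1 and Cnt 2 were chosen after the data were seen, as was the sum of both PKNOX1 IDs. No paired analysis was possible because the Fgf20aHOM columns do not carry the numbers of the titles, and no pairs of embryos are described. Mutants came from crosses between homozygous parents, so a shared number would not by itself make a pair with a wild-type embryo. The fold changes of meis3, meis2b and the meis2 sum were positive in all 16.

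Calls among the members rose from 0 to 1 with DESeq2. The count at an adjusted p of 0.05 went from 1 to 2 with DESeq2, to 0 with neural scaling and without both Cnt 1 and Cnt 2, and to between 0 and 1 without single libraries. Genes called overall numbered 86 (45 higher), 634 (258 higher) with DESeq2, 99 (22 higher) with limma-voom, 98 (21 higher) with a filter of 1 CPM in all libraries, 117 (53 higher) without a filter, 137 (31 higher) with neural scaling, 8 without both Cnt 1 and Cnt 2, and between 15 (without Fgf20aHOM F3) and 69 (without Fgf20aHOM F2) without single libraries.

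Neural scaling turned the member median to -0.14, meis1a to -0.14, meis1b to -0.19, meis2a to -0.096, pbx4 to -0.092, the meis1 sum to -0.18 and PKNOX1 ENSDARG00000036542 to -0.37 (log2). Without both Cnt 1 and Cnt 2, pbx1a was 0.069, pbx2 0.26, pbx3b 0.24, PKNOX1 ENSDARG00000018765 0.30 and the PKNOX1 sum 0.23. Total counts only gave 0.065 for pbx2, 0.042 for ENSDARG00000018765 and 0.076 for the PKNOX1 sum. Without a filter pbx2 was 0.012 and the PKNOX1 sum 0.026, with 1 CPM in all libraries 0.0015 and 0.013, and with limma-voom pbx2 was 0.0077. Without single libraries pbx1a ran from -0.31 to 0.12, pbx2 from -0.12 to 0.13, ENSDARG00000018765 from -0.13 to 0.13, ENSDARG00000036542 from -0.042 to 0.33 and the PKNOX1 sum from -0.086 to 0.15. None of these values passed an adjusted p of 0.05. Neural scaling lowered the median of all tested genes as well, from -0.048 to -0.50. The cause of these changes was not tested.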

Other observations

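Other TALE genes did not pass the limits of the study with any tool. Of all tested genes, edgeR, DESeq2 and limma-voom called 0.439%, 3.08% and 0.505%. The Hox cofactor genes pbx1b, pbx3a and pknox2 had 0 calls by edgeR, DESeq2 and limma-voom and 0 unadjusted p under 0.05 by edgeR, and pbx1b had 31.1 to 104 normalised counts in Cnt and 92.1 to 186 in Fgf20aHOM (2.18-fold, 95% interval 0.767 to 6.20, edgeR adjusted p = 0.460). Of 8 matched TALE genes outside the Hox cofactors, 2 had an unadjusted p under 0.05 by edgeR, both higher in mutants, against 8.44% of all genes in that direction. The lowest p was that of the Iroquois gene irx4a, matched by elimination, with 91.5, 77.8, 60.3 and 59.3 normalised counts in Cnt 1 to 4 and 228, 203 and 168 in Fgf20aHOM F2, F3 and F4 (2.76-fold, 95% interval 1.29 to 5.89, edgeR adjusted p = 0.191, DESeq2 0.0173). tgif1, which encodes a TALE repressor and was chosen after its values were seen, was 1.55-fold higher with overlapping groups (95% interval 1.07 to 2.24, edgeR adjusted p = 0.237).

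Among 8 matched partners and chromatin cofactors of TALE proteins, edgeR, DESeq2 and limma-voom called 0, against 0.439%, 3.08% and 0.505% of all genes. Their median log2 fold change was -0.057, close to that of all genes. By edgeR 2 of these 8 had an unadjusted p under 0.05, both higher in mutants, against 8.44% of all genes in that direction. The lowest p was that of ncor1, a corepressor gene, at 1.64-fold (95% interval 1.03 to 2.61, edgeR adjusted p = 0.291). hdac1, a histone deacetylase gene that was chosen after its values were seen, was at 0.824-fold (95% interval 0.574 to 1.18, edgeR adjusted p = 0.606).

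Outliers were sought among the 4 Cnt libraries in 12 measures, the total count and the counts of the 9 genes and both PKNOX1 IDs. With Dixon's test at the 95% level, 0 of 12 held one.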
